A study of Mus musculus with 36 samples.

Results

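The 7 genes described here are the apelin peptide *Apln*, its receptor *Aplnr*, and *Esm1*, *Plaur*, *Trp53i11*, *Nid2* and *Mcam*, which have been listed as enriched in the tip cells of sprouting vessels. They were chosen by name, with earlier results of these data known. Their Ensembl identifiers were looked up in the expression tables of embryonic mouse hearts. All 7 were measured in each of the 5 experiments, among 14846 genes found in at least 1 table. The study asked what the Notch ligands Jag1 and Dll4, and the downstream factor EphrinB2, do in the forming coronary vessels, and RNA of mutant hearts was sequenced beside that of WT hearts. There were 36 libraries, 20 WT and 16 mutant, and every experiment had its own 4 WT libraries. At E12.5 whole hearts were used, in pools of 4 embryos, from *Jag1flox;Nfatc1-Cre* embryos (4 mutant libraries) and *Dll4flox;Nfatc1-Cre* embryos (2 mutant libraries). At E15.5 ventricles were used, in pools of 3, from *Dll4flox;Cdh5-CreERT2* embryos, labelled D4Cdh5-CreER (3 mutant libraries), and from *Dll4GOF;Tie2-Cre* embryos (3 mutant libraries). At E16.5 the ventricles came from single *Efnb2flox;Nfatc1-Cre* embryos (4 mutant libraries). Both copies of the floxed gene carried loxP sites in the deletion mutants. *Nfatc1-Cre* is active in the endocardium, including that of the sinus venosus from which coronary vessels sprout, *Cdh5-CreERT2* is active in endothelium once tamoxifen is given (here to the dams at E12.5), and *Tie2-Cre* acts in endothelium and blood lineages. *Dll4GOF* carries an extra copy of *Dll4* in the Rosa26 locus behind the CAG promoter, made in 1 embryonic stem cell clone. Whether the WT dams of the induced experiment received tamoxifen is not given in the sources used here. Further mutant samples of the E12.5 *Dll4* experiment were left out by the authors, in part for their *Dll4* level, so the mutants kept there were chosen on the targeted gene.

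A new vessel branch is led by a tip cell, which extends filopodia towards VEGF, and is lengthened by the stalk cells behind it. Tip cells present Dll4 to their neighbours, and the Notch signal received there holds down the tip cell programme, so that loss of Dll4 in the mouse retina gives an excess of tip cells. Apelin is a secreted peptide made by sprouting endothelium, and its G protein-coupled receptor Aplnr is found on veins and on the sinus venosus endothelium. *Esm1* encodes endocan, a secreted proteoglycan of tip cells. *Plaur* encodes the cell surface receptor for urokinase, which localises plasmin formation at the leading edge of moving cells. *Nid2* encodes nidogen 2, a basement membrane protein, and *Mcam* encodes CD146, an adhesion molecule of endothelium, mural cells and smooth muscle. *Trp53i11* encodes a membrane protein found as a gene induced by p53.

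On GRCm38, *Apln* (ENSMUSG00000037010) lies on the minus strand of chromosome X, from 48025146 to 48034853. *Aplnr* (ENSMUSG00000044338; 85136225 to 85139923) and *Trp53i11* (ENSMUSG00000068735; 93187548 to 93201759) lie on the plus strand of chromosome 2, the chromosome that also carries *Dll4* and *Jag1*. *Esm1* (ENSMUSG00000042379) is on chromosome 13 from 113209659 to 113218098, *Plaur* (ENSMUSG00000046223) on chromosome 7 from 24462484 to 24475968, *Nid2* (ENSMUSG00000021806) on chromosome 14 from 19751265 to 19811787, and *Mcam* (ENSMUSG00000032135) on chromosome 9 from 44134469 to 44142727, all on the plus strand. RefSeq promoter sequences on GRCm38.p6 matched 5 of the 7 genes, with *Aplnr* and *Nid2* unmatched. The 250 bases before the start site are printed for *Plaur* and *Trp53i11*, 2 of the genes that rose after induced deletion of *Dll4*, and for *Apln*, whose level was high in the same mutant libraries. They are written 5′ to 3′ on the gene's strand, and the positions are chr7:24462233-24462482 for *Plaur*, chr2:93187298-93187547 for *Trp53i11* and chrX:48034854-48035103 for *Apln*. Capitals mark matches, on either strand, to the hypoxia response element core (ACGTG or GCGTG), the RBPJ site through which Notch acts (GTGGGAA), the AP-1 site (TGANTCA) or the p53 half-site, and no 2 matches overlapped.
Plaur: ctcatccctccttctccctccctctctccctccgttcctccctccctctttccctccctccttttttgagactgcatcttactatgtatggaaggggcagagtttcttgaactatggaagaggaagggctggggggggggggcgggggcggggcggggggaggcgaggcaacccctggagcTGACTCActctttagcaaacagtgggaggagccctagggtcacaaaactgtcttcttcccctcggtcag
Trp53i11: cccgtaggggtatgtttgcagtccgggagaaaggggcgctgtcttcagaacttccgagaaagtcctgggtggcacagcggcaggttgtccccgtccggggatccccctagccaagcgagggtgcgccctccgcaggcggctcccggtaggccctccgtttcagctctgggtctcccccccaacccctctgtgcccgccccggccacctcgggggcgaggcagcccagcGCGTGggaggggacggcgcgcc
Apln: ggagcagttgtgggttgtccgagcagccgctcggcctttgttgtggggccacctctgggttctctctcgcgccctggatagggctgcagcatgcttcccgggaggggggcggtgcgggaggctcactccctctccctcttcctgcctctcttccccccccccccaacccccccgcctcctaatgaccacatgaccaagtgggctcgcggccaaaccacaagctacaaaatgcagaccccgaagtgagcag

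The *Plaur* window held 1 AP-1 match and the *Trp53i11* window 1 match to the hypoxia core. The *Apln* window held a match to none of these motifs, and no p53 half-site was found in the *Trp53i11* window. *Esm1* had 1 hypoxia core match, and *Mcam* had no match of any kind. Among 32817 promoter windows of that length, 38.6% held the hypoxia core, 5.42% the RBPJ site, 6.75% the AP-1 site and 7.12% the p53 half-site, so the hypoxia core is common and a match describes the letters only.

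The libraries held between 7827496 and 28464430 recovered reads, with the lowest depth in the E16.5 experiment. Values are normalized counts, the authors' CPM-scaled read counts. *Jag1* fell to a mean of 23.8 from 42.3 normalized counts in its mutants (log2 fold change -0.82, adjusted p = 0.00653), and *Dll4* to 1.41 from 15.2 in the E12.5 deletion (-3.03, adjusted p = 0.000164). The other targeted genes did not pass the test: *Dll4* at E15.5 after induced deletion (-1.12, adjusted p = 0.0507) and in the gain of function hearts (0.28, adjusted p = 0.354), and *Efnb2* in its mutants (-0.52, adjusted p = 0.297). In WT hearts the listed endothelium markers summed to 1408 to 1791 normalized counts and the cardiomyocyte markers to 27340 to 44200. These are bulk samples, in which a change in the number of endothelial cells and a change in RNA per endothelial cell cannot be told apart.

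In WT hearts *Mcam* and *Nid2* were the most abundant of the 7 genes and *Esm1* the least. Per kilobase of exon, *Mcam* was at 86.6 ± 3.20 to 118 ± 6.21 normalized counts (SD, n = 4 in each WT group) and *Nid2* at 36.2 ± 1.41 to 70.9 ± 3.74. *Plaur* was between 1.596 ± 0.196 and 2.30 ± 0.130, and *Esm1* between 0.557 ± 0.202 and 1.22 ± 0.104. *Esm1* was covered by only 6 to 48 reads in a WT library, and its log2 fold change had the largest SE of the 7 in every experiment except the E12.5 *Dll4* deletion, where *Apln* (0.347) and *Aplnr* (0.276) had larger ones than *Esm1* (0.252). Both apelin genes had higher levels at the later stages. Per kilobase, *Apln* was at 2.72 ± 0.353 and 3.56 ± 1.07 in the E12.5 WT groups and at 8.58 ± 0.474, 8.89 ± 1.04 and 8.86 ± 0.394 in the 3 later ones. *Aplnr* was at 3.99 ± 0.549 and 6.43 ± 2.21 at E12.5, and at 15.6 ± 1.07, 15.48 ± 1.08 and 19.7 ± 3.31 later. *Nid2* had the opposite order, with 70.9 ± 3.74 and 69.5 ± 1.66 at E12.5 against 38.3 ± 1.98, 49.0 ± 2.004 and 36.2 ± 1.41 later. The tables were normalized separately, and the earlier samples were whole hearts and the later ones ventricles, so stage and tissue cannot be told apart and no test was made across tables. The libraries of neighbouring genes in the order of levels did not overlap in most WT groups. The exceptions were *Trp53i11* and *Aplnr*, *Aplnr* and *Apln*, and *Apln* and *Plaur* in the WT hearts of the E12.5 *Dll4* experiment, and *Trp53i11* and *Aplnr* in those of the *Dll4GOF;Tie2-Cre* experiment.

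**Figure D1:**
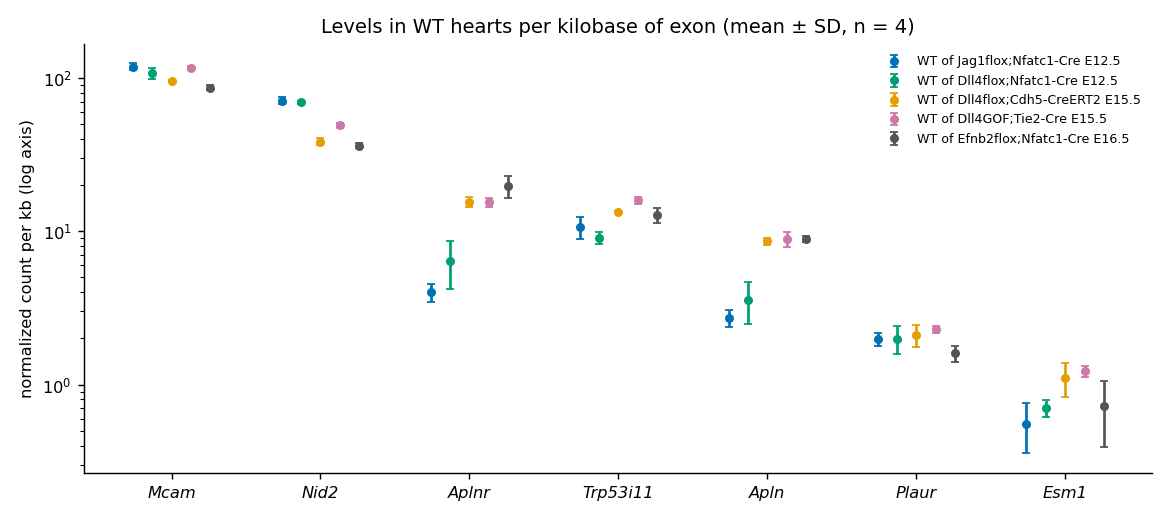
Levels of the 7 genes in WT hearts, as normalized counts per kilobase of exon on a log axis, with points for the mean and bars for the SD of the 4 WT libraries of each experiment. *Apln* and *Aplnr* were higher in the E15.5 and E16.5 ventricles than in the E12.5 whole hearts, and *Nid2* was lower there. The tables were normalized separately.

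*Plaur*, *Trp53i11* and *Aplnr* rose after induced endothelial deletion of *Dll4* in *Dll4flox;Cdh5-CreERT2* ventricles, which is 3 of 7 genes. Of all 13897 genes, 1.15% were called there in either direction and 0.943% as higher in the mutant. The 7 genes were chosen with earlier results of these data known, so the shares were not compared by a test. The log2 fold changes of all 7 were above 0, with a median of 0.45 against a median over all genes of 0.00 (-0.000815). The 15 listed endothelium markers had a median of 0.39 in the same ventricles, with 5 called as higher and 14 above 0. The threshold for a call was 0.05 on the limma p adjusted by Benjamini-Hochberg over the whole table, and SE is the standard error of a log2 fold change.

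*Plaur* was at 6.73, 5.51, 5.08 and 4.65 normalized counts in the 4 WT libraries and at 13.4, 8.55 and 13.7 in mutant replicates 2, 3 and 4. Every mutant library lay above every WT library, and replicate 3 was the closest to WT. The mean rose from 5.49 ± 0.899 (SD, n = 4) to 11.9 ± 2.90 (SD, n = 3), a log2 fold change of 1.03 (SE 0.180, adjusted p = 0.0231). *Plau*, which encodes urokinase, the ligand of this receptor, rose as well, from 11.3 to 21.5 normalized counts (0.91, adjusted p = 0.0179). Of the 10 genes of the urokinase system tested beside *Plaur*, which cover plasminogen activators, their inhibitors, integrins and matrix metalloproteases, *Plau* was the only one to pass, and the median of the list was 0.08.

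*Trp53i11* was at 50.04, 49.98, 48.8 and 49.4 in WT and at 88.1, 62.2 and 86.2 in mutant replicates 2, 3 and 4. The WT libraries were within a narrow range, and all mutants lay above them with replicate 3 again the lowest. The mean rose from 49.5 ± 0.594 (SD, n = 4) to 78.8 ± 14.5 (SD, n = 3), a log2 fold change of 0.65 (SE 0.106, adjusted p = 0.0179). Among the 12 listed targets of p53, only *Cdkn1a*, the cell cycle inhibitor p21, passed the test (0.65, adjusted p = 0.0254), and the list median was 0.01.

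The apelin receptor *Aplnr* was at 52.0, 58.1, 58.9 and 61.3 in WT and at 86.2, 78.6 and 71.8 in mutant replicates 2, 3 and 4. The groups did not overlap, and for this gene replicate 3 was not the lowest mutant. Its mean rose from 57.6 ± 3.97 (SD, n = 4) to 78.9 ± 7.21 (SD, n = 3), a log2 fold change of 0.45 (SE 0.0809, adjusted p = 0.0258). The ligand *Apln* was at 26.7, 25.9, 26.2 and 29.2 in WT and at 47.2, 31.4 and 50.2 in the mutants. All 3 mutants lay above WT, and the ratio of means was 1.59, but the test narrowly missed the threshold (0.63, SE 0.136, adjusted p = 0.0523). Over the alternatives that kept all libraries, the adjusted p of *Apln* lay between 0.0317 and 0.153, and without mutant replicate 3 it was 0.000495. None of the 16 other apelin pathway genes tested, which cover the receptor's G proteins, the arrestins and the transcription factor *Klf2*, passed here or in any other experiment at this threshold.

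*Esm1*, *Nid2* and *Mcam* did not pass in these ventricles. *Esm1* was at 2.74, 2.73, 1.49 and 2.30 in WT and at 3.35, 2.52 and 1.92 in the mutants, with overlapping groups (0.14, 95% interval -0.38 to 0.65). *Nid2* was at 191.1, 199.3, 190.2 and 212.3 in WT and at 206.1, 200.7 and 241.2 in the mutants (0.12, 95% interval -0.04 to 0.28). *Mcam* was at 314.4 to 323.3 in WT and at 325.8 to 364.4 in the mutants, so that its groups did not overlap although the difference was small (0.09, 95% interval -0.04 to 0.22). In all, 5 of the 7 genes had mutant libraries wholly above WT in this experiment, as 6.97% of all genes did.

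The *Dll4* transcript level differed between the mutant libraries. It was at 28.0, 23.2, 25.0 and 28.6 normalized counts in WT, at 8.11 in mutant replicate 2, at 20.7 in replicate 3 and at 9.53 in replicate 4. Replicate 3, which kept 79.0% of the WT mean of *Dll4*, had the lowest *Apln*, *Plaur*, *Trp53i11*, *Nid2* and *Mcam* of the mutants, but not the lowest *Aplnr* or *Esm1*. Of the 3 mutants it also had the lowest sums of endothelium markers and of hypoxia targets (3457, against 4104 and 4114). Without that library the log2 fold changes were 1.24 for *Plaur* (adjusted p = 0.00188), 0.81 for *Trp53i11* (adjusted p = 0.000153), 0.84 for *Apln* (adjusted p = 0.000495) and 0.45 for *Aplnr* (adjusted p = 0.0190), and 574 genes were called instead of 160. Without mutant replicate 2, no member was called (adjusted p = 0.164, 0.134 and 0.174 for *Plaur*, *Trp53i11* and *Aplnr*), and only 6 genes were called in all. None was called without WT replicate 2 or without WT replicate 3 either, with adjusted p up to 0.0844, and only *Plaur* was without WT replicate 1 (adjusted p = 0.0387). *Plaur* also lost its call without WT replicate 4 (adjusted p = 0.0580) and without mutant replicate 4 (adjusted p = 0.0527), and all 3 lost it when the mean-variance trend was left out (adjusted p between 0.0860 and 0.110).

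**Figure D2:**
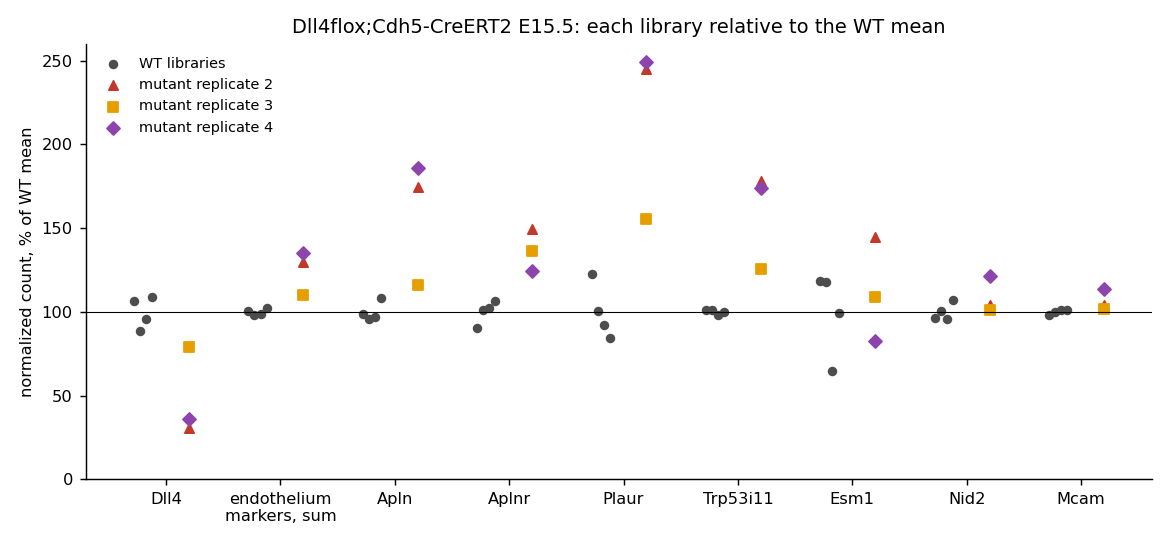
Each library of the *Dll4flox;Cdh5-CreERT2* experiment as a percentage of the WT mean, for *Dll4*, the summed endothelium markers and the 7 genes. Grey points are the 4 WT libraries and coloured symbols the 3 mutant libraries. Mutant replicate 3, at 79.0% of WT *Dll4*, was the mutant nearest to the WT mean for the summed endothelium markers and for all of the 7 genes except *Aplnr*.

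Endothelium markers were themselves higher in these mutants. Of 15 listed, 5 rose (*Egfl7*, *Icam2*, *Esam*, *Erg* and *Emcn*; log2 fold changes of 0.41 to 0.59) and 14 had values above 0. Their sum was between 1483 and 1551 in WT and at 1965, 1664 and 2044 in mutant replicates 2, 3 and 4. Expressed per 1000 normalized counts of these markers, *Plaur* was at 3.00 to 4.42 in WT and 5.14 to 6.85 in the mutants, *Trp53i11* at 31.9 to 33.7 and 37.4 to 44.9, and *Apln* at 17.5 to 18.8 and 18.9 to 24.6, with the mutants wholly above WT for all 3. *Nid2* (125.6 to 136.9 in WT and 104.9 to 120.6 in the mutants) and *Mcam* (206.5 to 215.7 and 169.3 to 195.8) lay apart in the other direction, with the mutants wholly below WT. The marker sum was higher in every mutant than in any WT library, so a gene at an unchanged level falls on this scale. *Aplnr* did overlap on this scale, with 34.2 to 39.6 in WT and 35.1 to 47.3 in the mutants. With every library scaled by its marker sum, a setting chosen after the data were seen, *Plaur* (0.71, adjusted p = 0.0108), *Trp53i11* (0.33, adjusted p = 0.0174) and *Apln* (0.32, adjusted p = 0.0355) passed the test, and *Aplnr* did not (0.13, adjusted p = 0.308). *Esm1*, *Nid2* and *Mcam* turned to values below 0 on that scale (-0.18, -0.20 and -0.23), none of which passed (adjusted p = 0.541, 0.0868 and 0.0572). The share of all genes that passed or lay apart relative to the markers was not computed. Whether these calls and separations are unusual there is therefore not known. The 9 macrophage and myeloid markers, cells in which *Plaur* is also expressed, all had values above 0 and none passed, and their sum was 82.8 to 105 in WT and 96.3 to 132 in the mutants. Of the markers of other cell types, the epicardial *Wt1* (0.51, adjusted p = 0.0475) and the erythroid *Slc4a1* (0.75, adjusted p = 0.0307) rose, while the summed epicardium and erythroid lists overlapped between the groups. The part of these cells in the results was not tested.

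**Figure D3:**
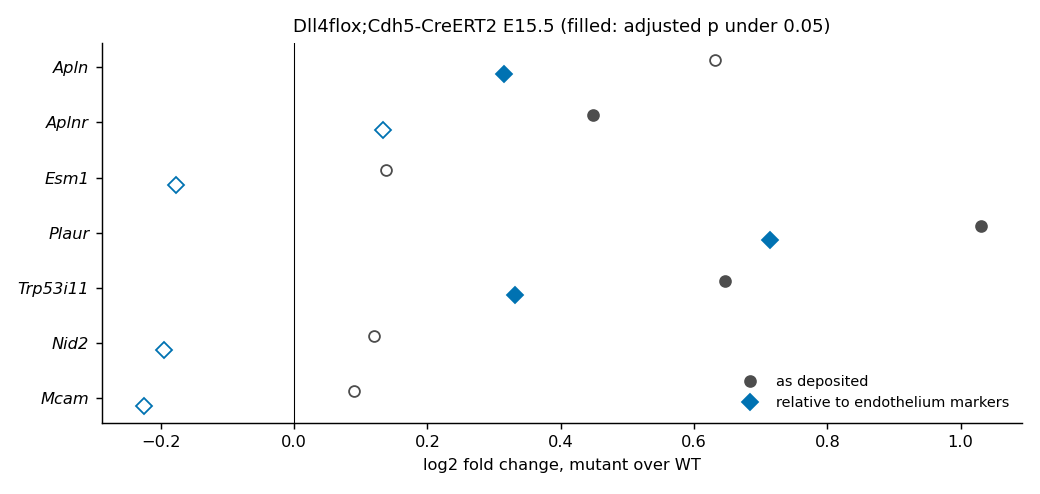
Log2 fold changes of the 7 genes in *Dll4flox;Cdh5-CreERT2* ventricles from the values as deposited (circles) and after scaling each library by its summed endothelium markers (diamonds). Filled symbols have an adjusted p under 0.05 in limma. *Plaur* and *Trp53i11* passed on both scales, *Aplnr* only as deposited and *Apln* only after the scaling. The share of all genes that passed after the scaling was not computed.

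Of the 23 other tip cell genes listed, 6 rose and 0 fell in the induced deletion, with a median of 0.34. *Kcne3*, a potassium channel subunit, had the largest of these changes (from 4.48 to 15.3 normalized counts; 1.59, adjusted p = 0.0179). *Vegfa* (0.85, adjusted p = 0.0157), the sulfotransferase gene *Chst1* (0.87, adjusted p = 0.0179), *Pdgfb*, which recruits pericytes (0.64, adjusted p = 0.0179), the VEGF-C receptor *Flt4* (0.65, adjusted p = 0.0179) and *Cd34* (0.34, adjusted p = 0.0213) were the others. *Vegfa* is made mostly outside the endothelium and is also a target of the hypoxia factor HIF1. Of 15 hypoxia targets tested, 7 rose and the median was 0.56, with *Vegfa*, *P4ha2*, *P4ha1* and *Bnip3* having the smallest p. None of the 15 other basement membrane genes passed beside *Nid2*, and their median was 0.12.

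Deletion of *Dll4* from the endocardium at E12.5 gave no call among the 7 genes by limma, while 2.17% of all 14302 genes were called in either direction and 1.31% as higher in the mutant. The largest estimates here were those of the apelin pair. *Aplnr* was at 29.0, 31.9, 14.2 and 19.97 in WT and at 42.2 and 42.4 in the mutants. Both mutants lay above all WT libraries, which ranged more than 2-fold among themselves, and the log2 fold change was 0.89 (SE 0.276, adjusted p = 0.120). *Apln* was at 12.2, 15.1, 6.995 and 10.6 in WT and at 14.4 and 33.2 in the mutants. One mutant was therefore inside the WT range and the other far above it (0.99, SE 0.347, adjusted p = 0.156). In WT the libraries with more *Apln* also had more *Aplnr*, with WT replicate 3 lowest for both. *Trp53i11* was at 31.2 to 37.7 in WT and at 34.6 and 51.4 in the mutants, with mutant replicate 2 again the high one (0.34, adjusted p = 0.224). Without mutant replicate 1, which leaves a single mutant library, the log2 fold changes were 1.57 for *Apln* and 0.62 for *Trp53i11*. Without mutant replicate 2 they were 0.40 and 0.06.

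The other 4 genes had estimates closer to 0. *Plaur* was at 4.07 to 6.34 in WT and at 5.54 and 6.52 in the mutants (0.21, 95% interval -0.22 to 0.65). *Esm1* was at 1.30 to 1.73 in WT and at 0.752 and 1.58 in the mutants (-0.29, 95% interval -0.87 to 0.28). *Nid2* was lower in both mutants, at 332.2 and 348.2 against 349.4 to 369.7, but by a small amount (-0.08, 95% interval -0.20 to 0.04). Groups that did not overlap were common in this experiment with 2 mutant libraries: 31.5% of all genes had such groups, against 2 of these 7. *Mcam* was at 349.0 and 334.8 in the mutants, inside the WT range (-0.07, 95% interval -0.25 to 0.10). Of the 23 other tip cell genes, *Adm* (1.804, adjusted p = 0.00142), *Vegfa* (1.26, adjusted p = 0.00146), *Kcne3* (1.74, adjusted p = 0.0245) and *Pdgfb* (1.01, adjusted p = 0.0457) rose, and the deleted *Dll4* was the only one to fall. *Kcne3* was at 11.7 in mutant replicate 1 and 22.7 in replicate 2. Of 15 hypoxia targets, 11 rose with a list median of 1.004, and their summed level was 3491 and 4240 in mutant replicates 1 and 2 against 2500 to 2794 in WT. The sum of the endothelium markers was 1490 to 1508 in the mutants and 1408 to 1505 in WT, and 0 of 15 passed. Of the 8 endocardium markers *Adgrg6* (-0.66, adjusted p = 0.0376) and *Cgnl1* (-0.29, adjusted p = 0.0393) fell, and the list summed to 605.2 and 673.6 in the mutants against 755.9 to 854.5 in WT. Of the 7 epicardium markers *Wt1* rose (0.57, adjusted p = 0.0354), and all 8 erythroid markers had values below 0 with a median of -0.80 and none called. Their part in the values of the apelin pair was not tested.

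Deletion of *Jag1* at E12.5 gave no call either, with 1.75% of all 13982 genes called in either direction and 1.12% as higher in the mutant. The gene with the largest estimate was *Esm1*, the endocan gene. It was at 1.07, 1.501, 0.612 and 1.49 in WT and at 3.21, 1.802, 2.64 and 5.17 in the mutants. All 4 mutants lay above WT, and the ratio of means was 2.74, at 16 to 43 reads in a WT library and 23 to 97 in a mutant library. The log2 fold change was 1.11 (SE 0.271, adjusted p = 0.0579), and *Esm1* was called with a robust variance prior (adjusted p = 0.0479) and by edgeR on the recovered reads (adjusted p = 0.0490). *Apln* was at 7.90, 9.02, 7.43 and 9.90 in WT and at 15.6, 9.93, 10.3 and 15.7 in the mutants. Its groups did not overlap but nearly met, with replicates 1 and 4 high and replicates 2 and 3 near WT (0.54, SE 0.158, adjusted p = 0.0847). *Aplnr* was at 15.7, 11.7, 15.52 and 16.2 in WT and at 15.9, 17.9, 20.3 and 24.3 in the mutants, of which 3 were above all WT libraries (0.39, adjusted p = 0.118). Groups lay apart with the mutants higher for 2 of the 7 genes here, and for 6.77% of all genes.

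The matrix gene *Nid2* was at 387.0, 340.7, 366.7 and 372.7 in WT and at 456.3, 384.6, 401.2 and 420.8 in the *Jag1* mutants (0.18, adjusted p = 0.127). *Mcam* (-0.05, 95% interval -0.19 to 0.08), *Plaur* (0.02, 95% interval -0.23 to 0.28) and *Trp53i11* (-0.05, 95% interval -0.31 to 0.21) had overlapping groups. Among the other tip cell genes, *Kcne3* (0.74, adjusted p = 0.0350), *Adm*, which encodes adrenomedullin (1.67, adjusted p = 0.0401), and *Vegfa* (1.11, adjusted p = 0.0403) rose, and 0 fell. *Adm* and *Vegfa* are also among the 6 of 15 hypoxia targets that rose (list median 0.79). *Vegfa* was at 361.1, 251.7, 131.7 and 182.1 in mutant replicates 1 to 4 against 91.0 to 115.9 in WT. *Esm1* was highest in replicate 4 and next highest in replicate 1, and a link between the 2 genes was not tested. Endothelium markers summed to 1521 to 1612 in WT and 1474 to 1600 in the mutants, and 0 of 15 passed. Markers of other cell types did move in these hearts. All 8 erythroid markers had values above 0, with a median of 0.76, and 2 rose, among them *Hemgn* (2.37, adjusted p = 0.0438), with a list sum of 3656 to 5212 in WT and 2615 to 10990 in the mutants. All 7 epicardium markers were above 0, with a median of 0.26, and *Msln* (0.68, adjusted p = 0.0219) and *Wt1* (0.41, adjusted p = 0.0373) rose, with a list sum of 307.4 to 404.6 in WT and 400.3 to 431.4 in the mutants. *Plvap* of the 8 endocardium markers (-0.42, adjusted p = 0.0372), *Acta2* of the 9 mural cell markers (-0.38, adjusted p = 0.0447) and *Lyz2* of the 7 myeloid markers tested (-0.60, adjusted p = 0.0200) fell. Their part in the *Esm1* and *Apln* values was not tested.

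Adding *Dll4* gave no call in any gene of the table. In *Dll4GOF;Tie2-Cre* ventricles 0% of the 13737 genes passed in limma, 0 in edgeR and 0 in voom, and 1280 had an unadjusted p under 0.05. *Aplnr* was the member with the largest estimate, and it lay lower. It was at 57.3, 55.4, 62.7 and 53.5 in WT and at 48.9, 44.8 and 33.3 in mutant replicates 2, 3 and 4. All 3 mutants were below all WT libraries, as were those of 4.39% of all genes, and the log2 fold change was -0.45 (SE 0.110, 95% interval -0.69 to -0.21, adjusted p = 0.354). *Dll4* was at 40.0, 38.5 and 42.7 in these mutants and at 31.7 to 35.2 in WT, and replicate 4 had both the most *Dll4* and the least *Aplnr*. The other mutants did not keep that order, since replicate 3 had less of both than replicate 2. Replicate 4 also had the highest sum of hypoxia targets, at 3985 against 2969 to 3298 in WT. Without 1 library the *Aplnr* estimate ran from -0.56 to -0.29. In the induced deletion the same receptor was at 71.8 to 86.2 against 52.0 to 61.3 in WT. The estimate was 0.45 in the deletion, which was called, and -0.45 here, which was not, each against its own WT. Relative to the summed endothelium markers, the ratio of mutant to WT means was 1.106 in the deletion and 0.744 here. The difference between the 2 experiments was not tested.

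*Apln* had overlapping groups in the gain of function hearts, and its difference from the receptor was not tested. It was at 26.4, 24.5, 29.0 and 32.1 in WT and at 27.7, 26.8 and 24.4 in the mutants (-0.08, 95% interval -0.28 to 0.12). *Plaur* was at 5.54 to 6.27 in WT and at 5.64, 6.79 and 5.26 in the mutants (-0.03, 95% interval -0.29 to 0.23). *Trp53i11* was at 55.3 to 63.3 in WT and at 59.8, 55.6 and 82.9 in the mutants, high in replicate 4 alone (0.15, adjusted p = 0.712). *Esm1* (0.09), *Nid2* (-0.05) and *Mcam* (0.08) had overlapping groups. None of the 23 other tip cell genes passed, and their median was 0.01. The endothelium markers summed to 1744 to 1793 in the mutants and 1759 to 1791 in WT. All 8 endocardium markers had values above 0 (median 0.12) and all 9 mural cell markers below 0 (median -0.11), with none called. Of 15 hypoxia targets tested, 14 had values above 0 (median 0.19) and none was called. Their sum was 3105 to 3985 in the mutants and 2969 to 3298 in WT. The part of these lists in the *Aplnr* values was not tested.

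In *Efnb2flox;Nfatc1-Cre* ventricles both apelin genes had estimates below 0, neither of which was called, and the difference between them was not tested. *Apln* was at 26.3, 27.5, 29.1 and 28.7 in WT and at 23.3, 24.0, 19.3 and 21.9 in the mutants. All 4 mutants lay below all WT libraries, as did those of 1.63% of all genes, and the WT mean was 27.9 ± 1.24 (SD, n = 4), against 22.1 ± 2.05 (SD, n = 4) for the mutants. The log2 fold change was -0.33 (SE 0.0816, 95% interval -0.51 to -0.15), which ranked 35 by p among 13527 genes and did not pass after adjustment (adjusted p = 0.557). In this experiment only 0.0296% of genes were called, and 0 of the 7. *Aplnr* was at 60.2, 64.9, 80.3 and 85.9 in WT and at 64.8, 61.9, 52.7 and 70.4 in the mutants, with wide and overlapping groups (-0.21, 95% interval -0.46 to 0.03). *Plaur* was at 3.64, 4.68, 4.54 and 3.85 in WT and at 6.77, 5.65, 4.68 and 5.07 in the mutants, of which 3 were above all WT libraries (0.36, 95% interval 0.03 to 0.70, adjusted p = 0.769). *Esm1* was read 6 to 22 times in a WT library here and its interval was wide (0.20, 95% interval -0.41 to 0.81). *Nid2* (-0.06), *Mcam* (0.04) and *Trp53i11* (0.09) had overlapping groups. The endothelium markers summed to 1534 to 1646 in WT and 1537 to 1709 in the mutants, and none of the 23 other tip cell genes passed. Of 15 hypoxia targets tested, 14 had values above 0 (median 0.105). Their sum was 3026 to 3314 in the mutants and 2774 to 3002 in WT. All 6 erythroid markers tested (median -0.36) and 5 of 7 epicardium markers (median -0.18) had values below 0. None of these genes was called, and their part in the *Apln* values was not tested.

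**Figure D4:**
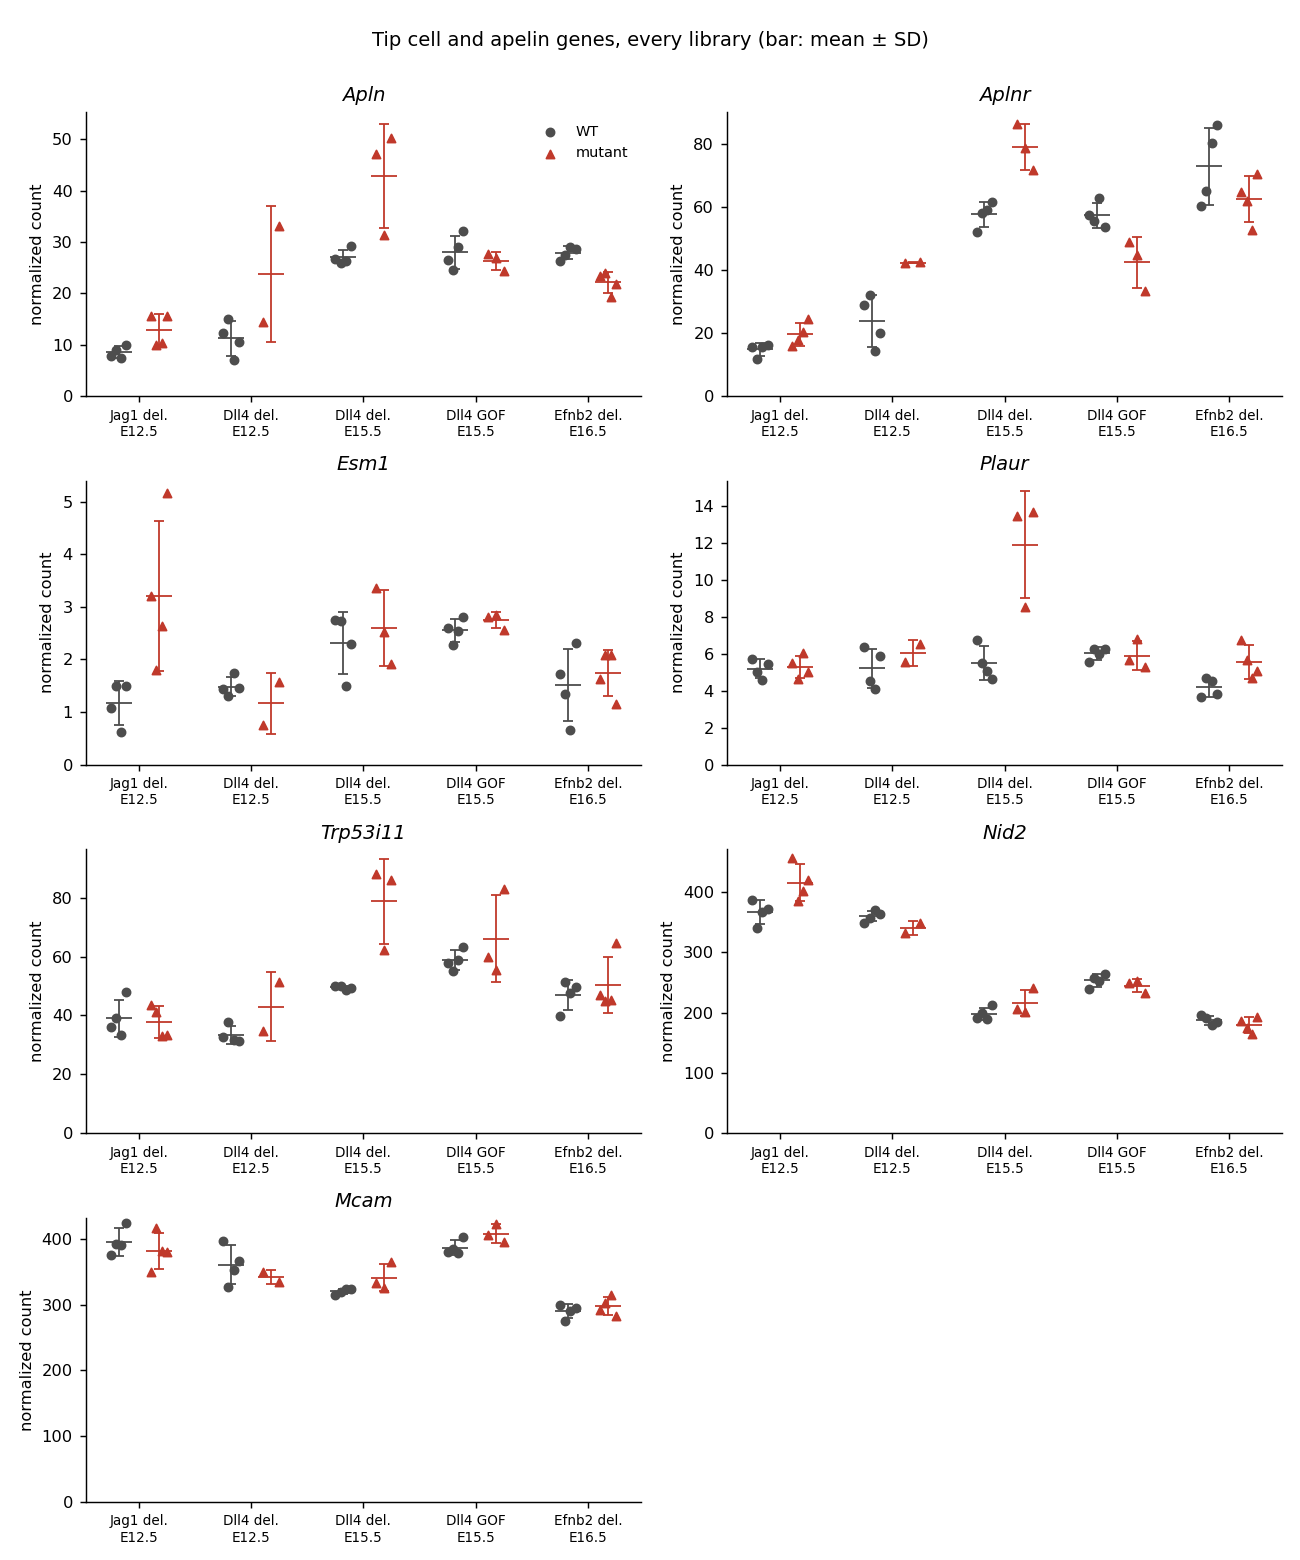
Normalized counts of the 7 genes in every library, with WT libraries as grey circles, mutant libraries as red triangles, and bars for the mean and SD of each group. Mutants lay wholly above WT for *Apln*, *Aplnr*, *Plaur*, *Trp53i11* and *Mcam* in the induced *Dll4* deletion (6.97% of all genes). They lay wholly below WT for *Aplnr* in *Dll4GOF;Tie2-Cre* (4.39% of all genes) and for *Apln* in *Efnb2flox;Nfatc1-Cre* ventricles (1.63%). In *Jag1* mutants *Esm1* and *Apln* lay wholly above WT (6.77% of all genes). In the E12.5 *Dll4* deletion *Aplnr* lay wholly above and *Nid2* wholly below WT (31.5% of all genes in either direction).

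**Figure D5:**
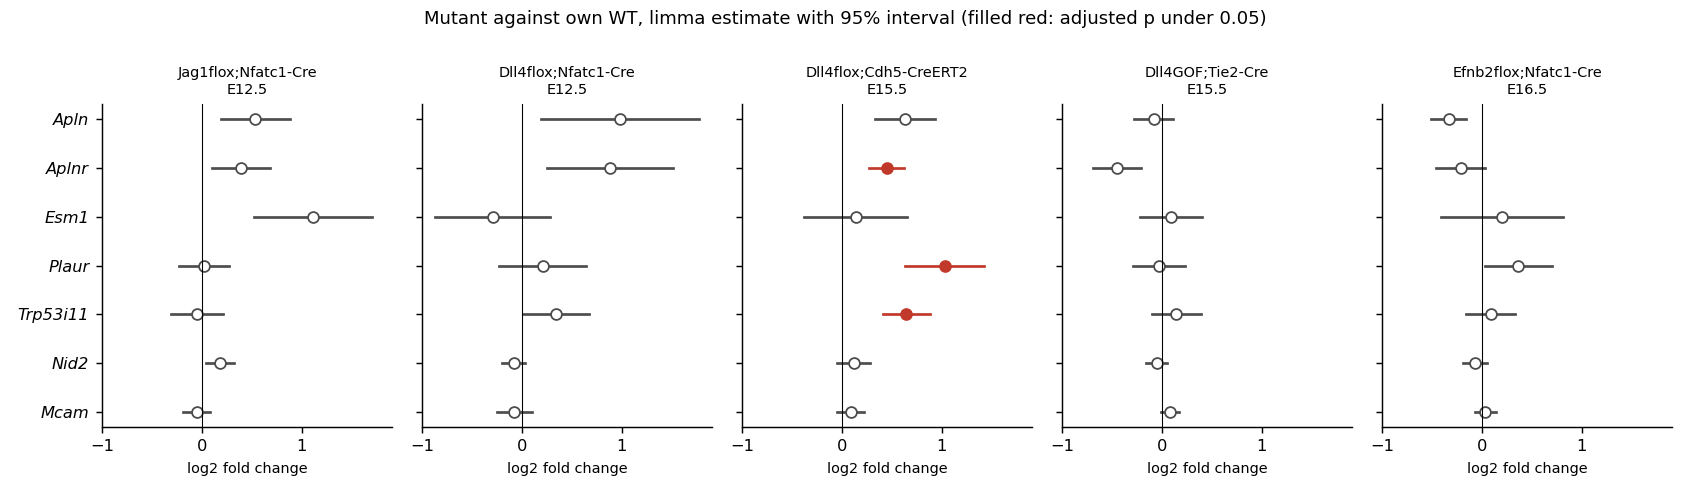
Log2 fold change of each gene in the 5 experiments, mutant against own WT, with the 95% interval from limma. Filled red points passed an adjusted p of 0.05: *Aplnr* (0.45), *Plaur* (1.03) and *Trp53i11* (0.65) in *Dll4flox;Cdh5-CreERT2* ventricles.

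The 7 genes did not vary as a single group. Over the 36 libraries, each taken as its log2 deviation from the WT mean of its own experiment, Pearson's r was 0.77 between *Apln* and *Aplnr*, 0.63 between *Plaur* and *Trp53i11*, and 0.52 between *Apln* and *Trp53i11*. *Mcam* had an r between -0.25 and 0.33 with the other 6 genes. These values are descriptions, since libraries of 1 experiment share a WT mean and mutant libraries share a genotype. Among the 12980 other genes with a symbol in all 5 tables, those most like *Apln* were *Gpihbp1* (r = 0.88), the capillary protein that binds lipoprotein lipase, *Prrg3* (0.87) and *Tmem255a* (0.86). Those most like *Aplnr* were the homeobox gene *Meox2* (0.89), the caveolar gene *Cav1* (0.89) and *Btnl9* (0.88). *Plaur* was closest to *Ctnnbip1* (0.82), *Sez6l2* (0.79) and *Arap3* (0.78), and *Trp53i11* to *Ppp1r13b* (0.85), whose product ASPP1 binds p53, and *Sars* (0.79). The nearest genes of *Nid2* were *Sh3glb1* (0.76), *Snrnp200* (0.74) and *Oxsr1* (0.73). Those of *Mcam* were *Rasa3* (0.70), *Cyb561d1* (0.68) and *Phrf1* (0.67). *Esm1* had the weakest best match of the 7, *Msl2* (0.66), followed by *Cldn12* (0.66) and *Lrrc58* (0.64).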

How the data were processed

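RNA of 36 heart libraries was sequenced as polyA-selected libraries. Per the labels, the authors used CASAVA 1.8.2, Cutadapt 1.6, FastQC and RSEM 1.2.3 on GRCm38, and the study's methods name limma for normalization. The signal deposited by the authors is a normalized count: the rounded RSEM expected count plus 0.5, on the CPM scale, for expressed genes. Undoing the scaling gave whole reads (within 0.01) for 100% of values. Each library held 7827496 to 28464430 recovered reads, and no 2 libraries were identical.

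Mutants were compared with their own WT on log2(value + 0.5) with limma 3.58.1 (R 4.3.3), its variance prior following the mean level, and p-values were adjusted by Benjamini-Hochberg over the table. Fold changes of low genes are understated on this scale. Requiring 1 CPM in the number of libraries of the smaller group removed 0 genes. As alternatives, edgeR 4.0.16 (quasi-likelihood) and voom were run on the recovered reads, with edgeR calling 1, 0, 4, 0 and 0 of the 7 genes in the order *Jag1*, *Dll4* at E12.5, *Dll4* at E15.5, *Dll4GOF* and *Efnb2* and 331, 317, 186, 0 and 4 genes in all. No trend, a robust prior, quantile normalization, median-centring of the libraries' log ratios, a pseudocount of 1, the upper 75% of genes, no filter, a replicate block and leaving out each library were also tried. Scaling by endothelium markers was added after the data were seen. On simulated counts of the *Dll4flox;Cdh5-CreERT2* libraries (13897 genes), limma recovered 75.4% of genes changed 1.5-fold and 96.8% of those changed 2-fold. The simulation gave all genes the same fixed dispersion and every mutant library the same change. The measured mutant libraries differed from each other, so these shares do not carry over to them.

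Exon lengths came from GENCODE vM21. Promoters came from RefSeq on GRCm38.p6. The 7 genes and all lists were chosen with earlier results of these data known. Genes named are the 7, the targeted genes, up to 4 called genes of each list with the smallest p, and for each of the 7 the 3 genes with the most similar pattern, of which 1 is not reported here; *Flt4*, *Cd34*, *Emcn* and *Klf2* lie outside that rule and were named after their values were seen. The libraries are separate pools or embryos.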

Additional observations from a re-analysis of the deposited data

Results flagged for a closer look

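A sample far from the others of its group was looked for in the 49 groups of 4 libraries, 1 for each of the 7 genes in each such group, and chance marks about 1 group in 20. It was found in 2. *Aplnr* was at 11.7 normalized counts in WT replicate 2 of the *Jag1flox;Nfatc1-Cre* experiment, and the other 3 WT libraries were at 15.52 to 16.2. *Trp53i11* was at 64.6 in mutant replicate 4 of the *Efnb2flox;Nfatc1-Cre* experiment, and the other 3 mutants were at 44.9 to 47.0.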

How the results depend on the processing

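The calls of the 7 genes depended most on the variance model and on single libraries. In *Dll4flox;Cdh5-CreERT2* ventricles 3 genes were called, and 0 without the mean-variance trend, with 5 genes called in all against 160. Leaving out 1 library gave between 0 and 4 called members and between 6 and 574 called genes. *Plaur* was not among the upper 75% of genes there and so had no value. In *Jag1flox;Nfatc1-Cre* hearts the count of 0 became 1 with the robust prior and 1 with edgeR, in both cases *Esm1*, and stayed at 0 without any 1 library. The genes called there were 245, and 48 without the trend, 442 with the robust prior, 369 among the upper 75% of genes and 17 to 538 without 1 library. Quantile normalization split them into 138 higher and 119 lower, against 156 and 89. In *Dll4flox;Nfatc1-Cre* hearts 311 genes were called, 56 without the trend, 492 with the robust prior and 36 to 563 without 1 library, with 0 to 2 members. In *Dll4GOF;Tie2-Cre* ventricles 0 to 29 genes were called without 1 library, and in *Efnb2flox;Nfatc1-Cre* ventricles 3 to 13 against 4, with 0 among the upper 75% of genes, and 0 members in either. The cause of these changes was not tested.

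With a replicate block, 77 genes were called in *Jag1flox;Nfatc1-Cre*, 29 in *Dll4flox;Nfatc1-Cre* and 1 in *Dll4GOF;Tie2-Cre* tables. In *Dll4flox;Cdh5-CreERT2* ventricles 3 members were called under the block, with *Apln* gained (adjusted p = 0.0356) and *Aplnr* lost (adjusted p = 0.0520), and *Trp53i11* in *Efnb2flox;Nfatc1-Cre* turned to -0.0097. Deviations of same-numbered libraries had correlations between -0.133 and 0.233, not every one was above 0.1, and not every mutant library correlated best with its own number, so the numbers were not taken as pairs.

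Signs turned only for estimates that did not pass. Quantile normalization turned *Plaur* in *Jag1* mutants to -0.021. Without 1 library, *Plaur* ran from -0.035 to 0.080 and *Trp53i11* from -0.12 to 0.052 in *Jag1* mutants, *Esm1* from -0.66 to 0.073 (E12.5) and from -0.032 to 0.30 (E15.5) after *Dll4* deletion, *Plaur* from -0.13 to 0.041 and *Trp53i11* from -0.027 to 0.26 in *Dll4GOF;Tie2-Cre*, and *Esm1* from -0.036 to 0.39 and *Trp53i11* from -0.036 to 0.14 in *Efnb2* mutants. Scaling by endothelium markers turned *Esm1*, *Nid2* and *Mcam* in *Dll4flox;Cdh5-CreERT2* ventricles to -0.18, -0.20 and -0.23, and *Mcam* in *Efnb2* mutants to -0.030. In the *Dll4flox;Cdh5-CreERT2* experiment the marker sum was higher in all mutants than in WT, which lowers every estimate on that scale. Depth limits *Esm1* most, with 6 to 97 reads in a library.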
